A study of Homo sapiens with 24 samples.

Results

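The MYC and MAX network is a small family of transcription factors that share a basic helix-loop-helix leucine zipper. The 8 genes followed here were taken by name from a table of 60609 genes: MYC, MAX, MXD1, MXD3, MXD4, MNT, MLX and MLXIP. All 8 were found and all 8 passed the filter on low values, among 16062 genes tested. RNA was measured in A549 cells, a line from a human lung adenocarcinoma, in 24 libraries that form 8 groups of 3. Cells first had 48 h of a BOP1 siRNA pool or of siRNA against firefly luciferase (FLuc), which human cells lack and which served as the control siRNA. They were then mock treated or given interferon beta (IFN) at 1000 units per mL, and RNA was taken at 8 or 12 h. BOP1 is a factor in the processing of ribosomal RNA for the large ribosomal subunit. No animal or donor varies between the libraries, since all come from 1 cell line, and nothing in the labels says that libraries of a group came from separate cultures, so p-values measure only the spread between these libraries. Because the samples are bulk RNA, a change in the share of cells and a change in RNA per cell cannot be told apart.

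MYC pairs with MAX and binds DNA at E-boxes, where the pair activates genes for growth, ribosome production and nucleotide synthesis. MXD1, MXD3, MXD4 and MNT compete with MYC for MAX, and their pairs bring histone deacetylases to the same sites and repress them. MLX is the partner of the sugar-sensing factor MLXIP (also called MondoA) in a parallel arm of the network and can also pair with MXD1, MXD4 and MNT. All of these relations act through proteins, which were not measured here.

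Values are TPM, a transcript abundance that scales reads by transcript length and library total, so that levels of different genes can be set side by side. Each column summed to 1000000, and the table keeps no sequencing depth. The 3 columns of a group are numbered 1, 2 and 4. Columns numbered 1 and 2 match labelled replicates, and those numbered 4 could be matched to their group only. Within groups, Pearson's r of log2(TPM + 1) ran from 0.9806 to 0.9862 between numbers 1 and 2 at 8 h and from 0.9848 to 0.9883 at 12 h. Pairs with number 4 ran from 0.9780 to 0.9822 at 8 h and from 0.9611 to 0.9773 at 12 h, so the 12 h libraries numbered 4 stand apart. As checks of the labels, BOP1 ranged from 10.0 to 19.5 TPM with its siRNA and from 32.4 to 78.8 TPM with the control siRNA, and IFIT1, a gene induced by interferon, ranged from 553.5 to 1436 TPM with IFN and from 0.676 to 3.81 TPM without. All 5 epithelial markers were at 1 TPM or more in every library, with a summed level of 4024 to 6864 TPM. Of 7 alveolar type II markers, ABCA3 (11.3 to 22.1 TPM) and LPCAT1 (43.3 to 99.96 TPM) were at 1 TPM or more in every library, NAPSA (0.666 to 4.55 TPM) and SFTPC (0 to 1.61 TPM) in some, and SFTPA1, SFTPB and NKX2-1 in none, with a summed level of 57.7 to 120.3 TPM. The leukocyte markers PTPRC and CD3E, the fibroblast markers COL1A2, COL3A1 and DCN and all 3 endothelial markers were below 1 TPM throughout, whereas the fourth fibroblast marker, COL1A1, was at 5.37 to 19.3 TPM. CD68, a further leukocyte marker, rose by 2.44 on the log2(TPM + 1) scale with IFN (adjusted p = 2.64e-16, limma). It was the 1 leukocyte marker at 1 TPM or more in every library, and the leukocyte list summed to 38.5 to 402.1 TPM.

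The activator MYC was the most abundant member, at 117.7 ± 37.0 TPM (SD, n = 24). Its obligate partner MAX followed at 67.0 ± 17.6 TPM and MLX at 43.2 ± 6.23 TPM. The repressor MNT stood at 17.8 ± 4.79 TPM and MXD4 at 15.0 ± 4.38 TPM, levels that were not separated over all libraries. MNT and MXD4 averaged 17.22 and 17.45 TPM under mock, and 18.29 and 12.58 TPM under IFN. MLXIP (11.3 ± 2.19 TPM) and MXD3 (11.0 ± 6.36 TPM) were likewise not separated over all libraries. Their order turned with treatment: MXD3 averaged 15.4 TPM under mock and 6.66 TPM under IFN, and MLXIP 12.1 and 10.4 TPM. MXD1 had the lowest mean, at 3.62 ± 2.21 TPM. The TPM of MYC thus exceeded that of each of its 4 repressive counterparts in every library. Of the other genes of the network, MXI1 (a further MXD repressor) ranged from 4.98 to 20.9 TPM, MGA (a MAX partner of a repressive complex) from 6.40 to 14.0 TPM, and MLXIPL (ChREBP, the relative of MLXIP) from 0.45 to 4.34 TPM. MYCL reached 8.18 TPM in 1 library and was at a median of 0.397 TPM, and MYCN did not exceed 0.109 TPM and was not tested.

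The E-box that MYC-MAX, MXD-MAX, MNT-MAX and MLX pairs all favour is CACGTG, which reads the same on both strands. The RefSeq promoter table used here (GRCh38.p14) was matched for 7 of the 8 members, all but MYC, in 8 entries, since MAX has 2. In the 250 bases before the start of the RefSeq entry, 3 of these members hold CACGTG, against 6.34% of 35116 RefSeq promoters searched the same way. They are MXD4, MNT and MLX, where the motif lies 238, 193 and 50 bases before that start. A RefSeq start can lie inside the gene as GENCODE 29 draws it. Both MAX windows and the MXD1 window do so. Of the 250 bases, 230 are exonic in GENCODE 29 for the first MAX entry and 185 for MXD4. Shown here are 30 bases around each, 5′ to 3′ on the strand of the gene, with the E-box in capitals, since these are the members whose own upstream sequence carries the site that the family binds. The windows are chr4:2262330-2262359 on the minus strand for MXD4, chr17:2401236-2401265 on the minus strand for MNT, and chr17:42567038-42567067 on the plus strand for MLX.
MXD4: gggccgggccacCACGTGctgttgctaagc
MNT: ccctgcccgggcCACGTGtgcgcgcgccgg
MLX: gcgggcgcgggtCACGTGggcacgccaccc
A match is a description of the letters and not a measured binding site.

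MXD1 and MXD3 had the largest IFN differences of the 8 in opposite directions, and the sequence before their RefSeq starts is given for that reason. Each stretch is the part of the 250-base window that touches no GENCODE 29 exon: chr2:69914859-69915040 on the plus strand for MXD1 and chr5:177312758-177313002 on the minus strand for MXD3. No letters are in capitals because no searched motif matched.
MXD1: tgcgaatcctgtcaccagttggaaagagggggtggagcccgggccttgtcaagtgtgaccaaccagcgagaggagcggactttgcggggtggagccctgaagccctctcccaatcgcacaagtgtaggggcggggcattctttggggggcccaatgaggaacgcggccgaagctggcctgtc
MXD3: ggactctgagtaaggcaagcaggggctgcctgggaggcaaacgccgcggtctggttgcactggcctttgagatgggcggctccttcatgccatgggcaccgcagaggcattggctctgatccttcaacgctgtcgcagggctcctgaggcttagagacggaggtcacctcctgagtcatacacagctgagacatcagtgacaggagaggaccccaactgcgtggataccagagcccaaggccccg
Neither the core of the interferon-stimulated response element (GAAA, any 2 bases, GAAA; 3.02% of all promoters) nor the site of STAT dimers (TTCNNNGAA; 6.57%) was found on either strand in any of the 8 entries, which says only that these letters are not in these windows. The windows of MAX and MXD1 lie inside their GENCODE 29 genes. The sequence before the GENCODE 29 start of either gene was not searched.

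In the GENCODE 29 annotation (GRCh38), MAX lies at chr14:65006174-65102695 on the minus strand, MXD1 at chr2:69897688-69942945 on the plus strand, MXD3 at chr5:177301461-177312757 on the minus strand and MXD4 at chr4:2247432-2262294 on the minus strand. MYC lies at chr8:127735434-127741434 on the plus strand, MNT at chr17:2384060-2401118 on the minus strand, MLX at chr17:42567068-42573239 on the plus strand and MLXIP at chr12:122078722-122147347 on the plus strand. MXD3 shares 926 of its 5154 exonic bases with RAB24 on the same strand and 1158 with PRELID1 on the opposite strand, and MXD1 shares 237 of 6351 with SNRNP27 on the same strand. MLX shares 770 of 4259 with PSMC3IP on the opposite strand. How reads in shared exons were assigned is not given in the sources used here, so the levels of MXD3, MXD1 and MLX are uncertain to that extent.

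**Figure D1:**
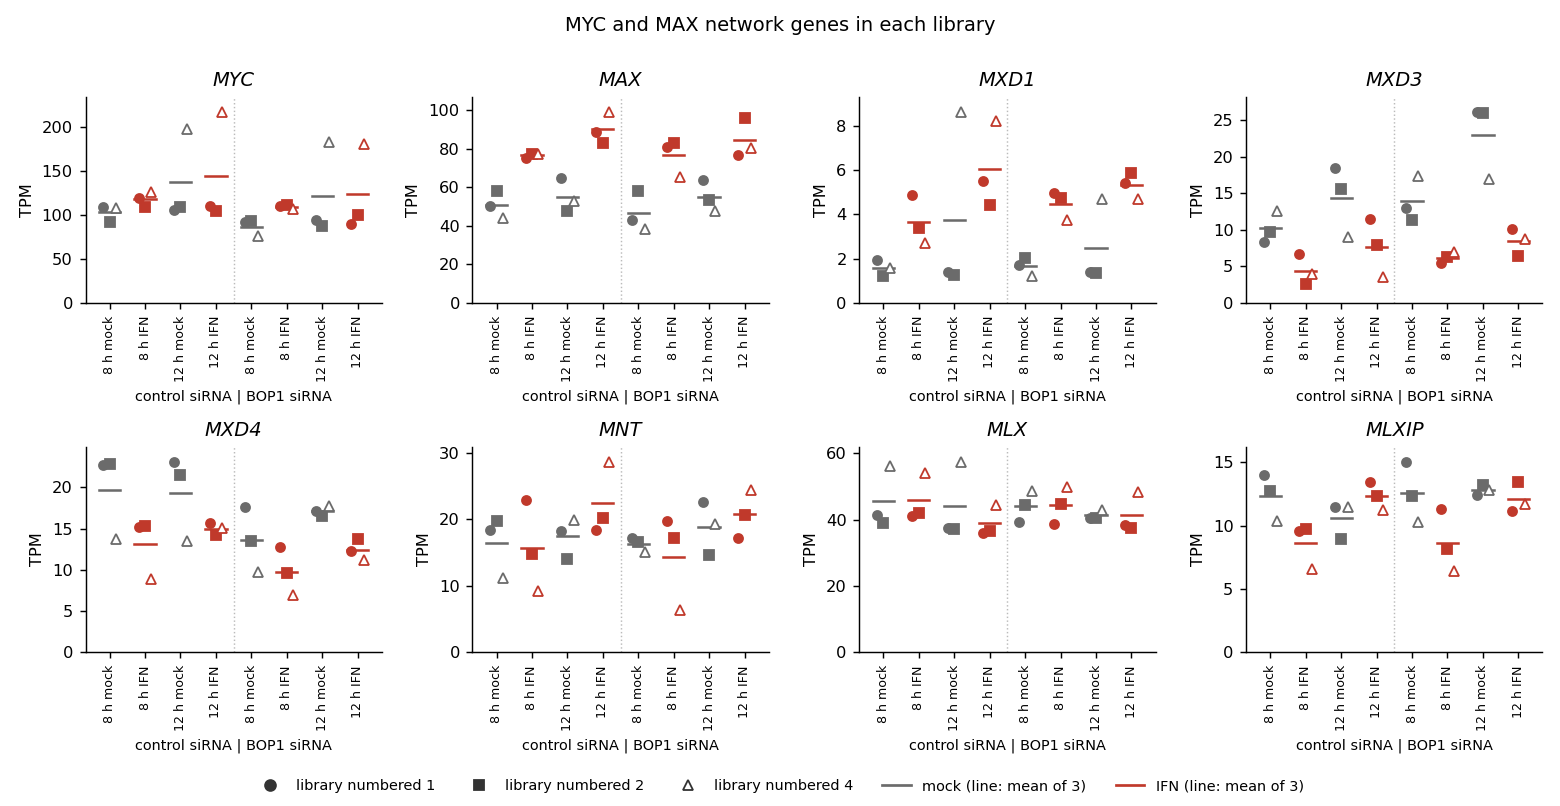
TPM of the 8 network genes (vertical axes, linear, from 0) in the 24 libraries, grouped along the horizontal axis by siRNA, time and treatment; symbols mark the column number, open triangles number 4, and horizontal lines the mean of 3. MAX was between 65.6 and 98.9 TPM in all 12 IFN libraries and between 38.3 and 65.0 TPM in all 12 mock libraries, whereas MYC was above 180 TPM only in the 4 libraries numbered 4 at 12 h.

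IFN treatment went with more MAX and MXD1 RNA and with less MXD3 and MXD4 RNA. MYC, MNT, MLX and MLXIP did not pass in the main fit, which has no block for the column number. Averaged over both siRNAs and both times, MAX rose by 0.66 on the log2(TPM + 1) scale (1.58-fold) and MXD1 by 0.94 (1.92-fold). MXD3 fell by 1.10 (2.14-fold lower) and MXD4 by 0.44 (1.35-fold lower). The folds are ratios of TPM + 1, which understate changes of low genes. The median of MXD1 was 1.49 TPM in mock libraries and 4.81 TPM in IFN libraries. These 4 of 8 members passed an adjusted p of 0.05 in limma, beside 41.9% of all genes tested, so their number does not set the network apart from other genes. In the single comparisons of 3 against 3 libraries, 7 of 32 member tests passed, 4 of them higher (all MAX) and 3 lower (all MXD3). The background was 10.8% of genes with control siRNA at 8 h and 13.5% at 12 h, and 15.1% and 14.8% with BOP1 siRNA. When a block for the number of the column was added to the model, separately at 8 and 12 h, 17 of the 32 tests passed, while the calls over all 16062 genes rose to between 3370 and 4653 in the 4 comparisons. Of the averaged tests 6 of 8 then passed, beside 54.3% of all genes.

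MAX, the partner without which MYC does not bind its sites, was the most regular of the 8. With control siRNA at 8 h, MAX was 50.6, 58.2 and 44.0 TPM under mock and 75.4, 77.4 and 77.5 TPM under IFN. The 12 h values were 65.0, 48.0 and 52.7 TPM under mock and 88.9, 83.3 and 98.9 TPM under IFN. Every IFN library lay above every mock library of its time, whichever its number. With BOP1 siRNA at 8 h, MAX was 43.0, 58.1 and 38.3 TPM under mock and 81.1, 83.3 and 65.6 TPM under IFN. In the same cells at 12 h it was 63.7, 53.5 and 47.8 TPM under mock and 76.8, 96.0 and 80.6 TPM under IFN. Again the groups did not overlap. The differences were 0.59, 0.71, 0.72 and 0.61 on the log2 scale in that order (SE 0.15 each), with adjusted p-values of 0.0126, 0.00243, 0.00194 and 0.00754 (limma). The averaged difference of 0.66 had an SE of 0.08 and an adjusted p of 4.73e-07. In libraries numbered 1 and 2 it was 0.59, and in those numbered 4 it was 0.80. The call with control siRNA at 8 h was lost in libraries 1 and 2 alone (0.49, adjusted p = 0.0648) and without the mock library numbered 4 (0.49, adjusted p = 0.0746), and the call with BOP1 siRNA at 12 h without the IFN library numbered 2 (0.52, adjusted p = 0.056). FNTB and CHURC1-FNTB, which overlap the MAX gene on the opposite strand without sharing exons, differed by -0.03 (adjusted p = 0.723) and by 0.55 (SE 0.48, adjusted p = 0.385).

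MXD1 (MAD1), a repressor that competes with MYC for MAX and is typical of cells leaving the cell cycle, was low in mock cells of numbers 1 and 2. With control siRNA at 8 h it was 1.96, 1.20 and 1.58 TPM under mock and 4.89, 3.37 and 2.72 TPM under IFN. By 12 h the values were 1.39, 1.24 and 8.62 TPM under mock and 5.51, 4.43 and 8.22 TPM under IFN. The 8 h groups did not overlap, whereas at 12 h the mock library numbered 4 was above every IFN library. With BOP1 siRNA, MXD1 was 1.70, 2.05 and 1.23 TPM under mock and 4.95, 4.73 and 3.77 TPM under IFN at 8 h. At 12 h it was 1.38, 1.35 and 4.70 TPM under mock and 5.41, 5.86 and 4.71 TPM under IFN. Here too the mock library numbered 4 sat at the level of the IFN libraries. The single differences ran from 0.84 to 1.05 (SE 0.41), with adjusted p-values from 0.0906 to 0.224, and the averaged one was 0.94 (SE 0.20, adjusted p = 0.000835, limma).

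Split by number, the IFN difference of MXD1 at 12 h was 1.36 with control siRNA and 1.49 with BOP1 siRNA in libraries 1 and 2, and -0.06 and 0.003 in libraries numbered 4. Without the 12 h mock library numbered 4, the difference with control siRNA became 1.57 (adjusted p = 0.00118), and likewise the one with BOP1 siRNA became 1.42 (adjusted p = 0.0277). With libraries 1 and 2 alone, MXD1 passed in all 4 comparisons, at 0.99, 1.36, 1.03 and 1.49 (adjusted p from 0.000117 to 0.0035). Of all 16062 genes, 2566, 3403, 3495 and 3831 passed in that setting, in the same order. With the block MXD1 passed in 3 of 4 (adjusted p = 0.0629 with control siRNA at 8 h, 0.041 at 12 h, 0.0166 and 0.023 with BOP1 siRNA). The 8 h difference of MXD1 with BOP1 siRNA also passed under median-of-ratios rescaling (1.17, adjusted p = 0.046) and, since all groups share the estimate of the spread, without the control mock library numbered 4 at 12 h (adjusted p = 0.0111). The overlapping SNRNP27 differed by 0.11 with IFN (adjusted p = 0.172).

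MXD3, a repressor of the same family that is expressed in dividing cells, moved the other way. With control siRNA at 8 h it was 8.40, 9.75 and 12.6 TPM under mock and 6.63, 2.65 and 3.91 TPM under IFN. The values at 12 h were 18.5, 15.6 and 9.05 TPM under mock and 11.5, 7.94 and 3.50 TPM under IFN. The groups were apart at 8 h and overlapped at 12 h, where both libraries numbered 4 were the lowest of their group. With BOP1 siRNA it was 13.0, 11.4 and 17.4 TPM under mock and 5.41, 6.25 and 6.96 TPM under IFN at 8 h. At 12 h it was 26.1, 26.1 and 16.9 TPM under mock and 10.2, 6.36 and 8.71 TPM under IFN. Every mock library was above every IFN library in these cells. MXD3 fell by 1.11 with control siRNA at 8 h (adjusted p = 0.0298), by 1.04 with BOP1 siRNA at 8 h (adjusted p = 0.0342) and by 1.35 at 12 h (adjusted p = 0.00625), each with an SE of 0.32 (limma). With control siRNA at 12 h the difference was -0.90 (adjusted p = 0.0723), and it passed with the block (adjusted p = 0.0124), without the mock library numbered 4 (-1.18, adjusted p = 0.0244) or without the IFN library numbered 1 (-1.22, adjusted p = 0.0209).

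The averaged fall of MXD3 was 1.10 (SE 0.16, adjusted p = 1.37e-05), of similar size in libraries 1 and 2 (-1.06) and in number 4 (-1.18). Both 8 h calls of MXD3 were lost under median-of-ratios rescaling (-1.03, adjusted p = 0.0638 with control siRNA, and -0.89, adjusted p = 0.103 with BOP1 siRNA) under quantile normalization (adjusted p = 0.0573 and 0.0875) and with no filter on low values (adjusted p = 0.0723 and 0.0813). The one with control siRNA was also lost when only the groups compared entered the fit (adjusted p = 0.0714). Single libraries also decided them. With control siRNA at 8 h the call was lost without mock library 2 or 4, or IFN library 2 or 4, with adjusted p between 0.0662 and 0.165. With BOP1 siRNA at 8 h it was lost without mock library 1 or 4, or any of the 3 IFN libraries, with adjusted p between 0.0515 and 0.137. RAB24, which shares exons with MXD3 on its strand, rose by 0.59 with IFN (adjusted p = 6.05e-08), opposite to MXD3, and PRELID1 differed by 0.02 (adjusted p = 0.799).

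MXD4, a repressor of the same family linked to differentiation, was lower with IFN by a smaller amount. With control siRNA it was 22.7, 22.8 and 13.7 TPM under mock and 15.1, 15.3 and 8.91 TPM under IFN at 8 h. Values at 12 h were 23.1, 21.5 and 13.5 TPM under mock and 15.7, 14.2 and 15.0 TPM under IFN. In mock cells the library numbered 4 was the lowest at both times, and the groups overlapped. With BOP1 siRNA, MXD4 was 17.6, 13.5 and 9.73 TPM under mock and 12.8, 9.57 and 7.01 TPM under IFN at 8 h, with overlap. At 12 h it was 17.1, 16.5 and 17.7 TPM under mock and 12.3, 13.7 and 11.2 TPM under IFN, without overlap. The averaged fall was 0.44 (SE 0.12, adjusted p = 0.00672, limma), and none of the 4 single differences, from -0.56 to -0.32, passed (adjusted p from 0.172 to 0.455). With the block, 3 of 4 passed (adjusted p from 0.00588 to 0.0206), and the one with control siRNA at 12 h did not (adjusted p = 0.0868). That last difference was -0.55 in libraries 1 and 2 and 0.15 in number 4. Among the 10 settings other than the main fit and leaving out 1 library, it passed in 2 (lowest adjusted p = 0.00946, limma).

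MYC itself was higher with IFN in every pair of the same number at 8 h, by 0.13 to 0.48 on the log2(TPM + 1) scale. At 12 h the differences within a number ran from -0.09 to 0.20. With control siRNA it was 109, 92.3 and 107 TPM under mock and 119, 109 and 125 TPM under IFN at 8 h. In 12 h libraries it was 106, 109 and 197 TPM under mock and 110, 105 and 216 TPM under IFN. The spread at 12 h came from the libraries numbered 4, which were high under both treatments. With BOP1 siRNA, MYC was 91.4, 92.4 and 76.1 TPM under mock and 110, 111 and 106 TPM under IFN at 8 h, without overlap. At 12 h it was 94.5, 86.9 and 183 TPM under mock and 89.0, 99.7 and 181 TPM under IFN. The averaged IFN difference was 0.15 (SE 0.15, adjusted p = 0.439, limma), and the single ones ran from 0.03 to 0.34 (SE 0.29, adjusted p from 0.495 to 0.968). With the block, which takes the differences between numbers out of the error, the same 0.15 passed (adjusted p = 0.00457), as did the 0.34 with BOP1 siRNA at 8 h (adjusted p = 0.00511). In libraries 1 and 2 alone the averaged difference was 0.12 (adjusted p = 0.0323).

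The repressor MNT, which is found in both dividing and resting cells, ranged from 11.2 to 22.6 TPM under mock and from 6.32 to 28.6 TPM under IFN (n = 12 each). Its averaged IFN difference was 0.02 (SE 0.16, adjusted p = 0.949). MLX, the partner shared by the sugar-sensing arm, ranged from 37.1 to 57.4 TPM under mock and from 36.1 to 54.2 TPM under IFN, with a difference of -0.03 (SE 0.08, adjusted p = 0.795), which became 0.06 under median-of-ratios rescaling (adjusted p = 0.56). The mock and IFN ranges of both genes overlapped.

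MLXIP, the sugar-sensing partner of MLX, had lower values with IFN at 8 h without passing the test. With control siRNA at 8 h it was 14.0, 12.7 and 10.4 TPM under mock and 9.58, 9.77 and 6.57 TPM under IFN, without overlap. With BOP1 siRNA it was 15.0, 12.3 and 10.3 TPM under mock and 11.4, 8.19 and 6.42 TPM under IFN. The groups overlapped here, and in each number the IFN library was below the mock library. The differences of -0.48 and -0.51 (SE 0.18) did not pass (adjusted p = 0.0995 and 0.0617), and both passed with the block (adjusted p = 0.00529 and 0.00273). At 12 h they were 0.20 and -0.08 (adjusted p = 0.517 and 0.835). The averaged difference was -0.21 (adjusted p = 0.0594, and 0.00376 with the block). MLXIP passed on average without any of 5 libraries: control mock library 4 or IFN library 2 at 8 h, control mock library 2 at 12 h, or BOP1 siRNA mock library 4 or IFN library 1 at 8 h (adjusted p from 0.0161 to 0.0479). At 8 h with BOP1 siRNA it passed without control IFN library 4, mock library 4 or IFN library 1 (adjusted p from 0.0142 to 0.0466).

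**Figure D2:**
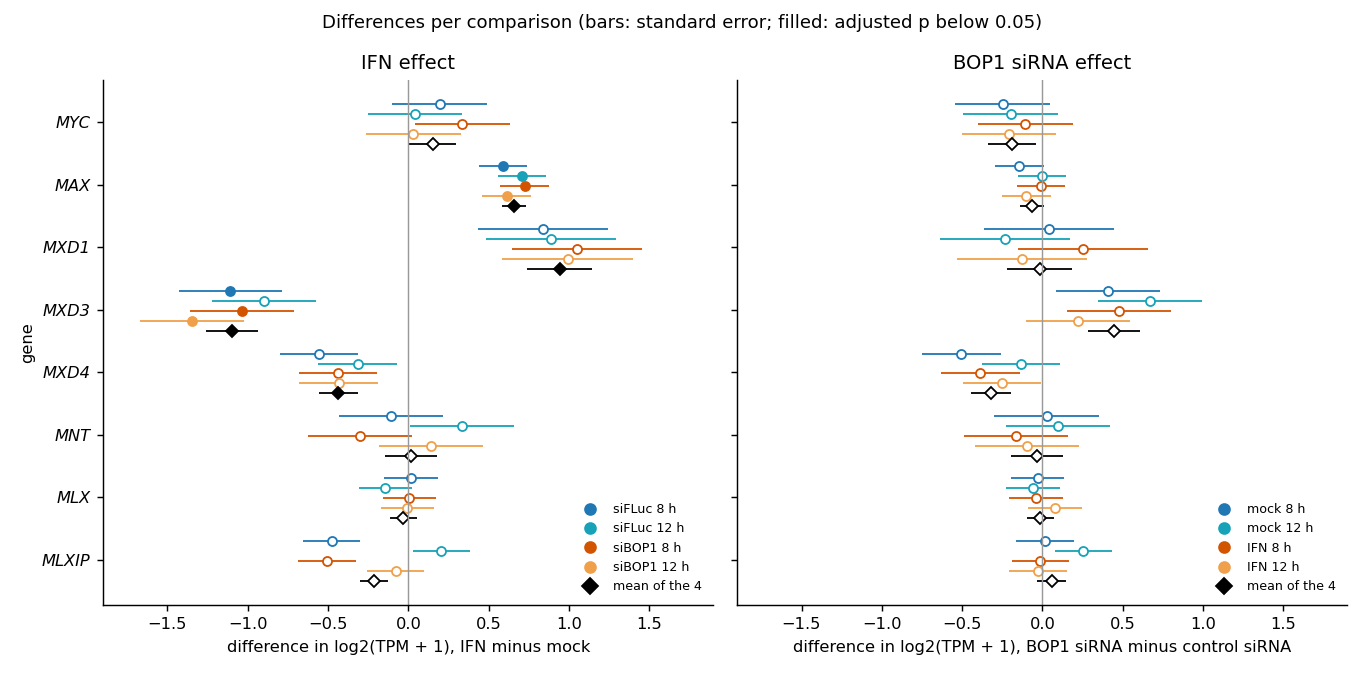
Differences in log2(TPM + 1) of each network gene (horizontal axes) for IFN against mock (left) and BOP1 siRNA against control siRNA (right); circles are the 4 single comparisons, named by siRNA (siFLuc is the control, siBOP1 the BOP1 siRNA) or treatment and by time, diamonds their mean, bars 1 SE, and filled symbols passed an adjusted p of 0.05. Under IFN, MAX sits between 0.59 and 0.72 in the 4 comparisons and MXD3 between -1.35 and -0.90, and no symbol is filled in the BOP1 siRNA panel.

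Within each library, the ratio of MAX to MYC TPM was 0.502 ± 0.114 under mock and 0.654 ± 0.0499 under IFN with control siRNA at 8 h (SD, n = 3), and 0.441 ± 0.174 and 0.688 ± 0.199 at 12 h. With BOP1 siRNA it was 0.534 ± 0.0832 and 0.701 ± 0.0738 at 8 h, and 0.517 ± 0.223 and 0.757 ± 0.274 at 12 h. At 12 h the spread was wide, because MYC was high in number 4. The summed TPM of MXD1, MXD3, MXD4 and MNT, divided by that of MYC, was 0.471 ± 0.108 under mock and 0.315 ± 0.110 under IFN with control siRNA at 8 h, and 0.528 ± 0.0503 and 0.318 ± 0.0836 with BOP1 siRNA. The 12 h ratios were 0.440 ± 0.164 and 0.389 ± 0.116 with control siRNA and 0.568 ± 0.215 and 0.415 ± 0.126 with BOP1 siRNA. These ratios describe RNA levels and were not tested.

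BOP1 siRNA against control siRNA gave no member call in the main fit, which has no block for the column number. In libraries 1 and 2 alone, also without a block, 2 of 8 averaged tests passed, beside 18.3% of all genes. With the block in all libraries, 1 of 32 single tests passed, and 3 of 8 averaged tests, beside 29.7% of all genes. Without it, 0 of 32 single member tests passed in limma, and 0 were below an unadjusted p of 0.05. For the adjusted p, the background was 2.16% and 1.60% of genes in mock cells at 8 and 12 h, and 2.0% and 0.660% in IFN cells. At an unadjusted p below 0.05 it was 2076, 2051, 2191 and 1444 of 16062 genes in that order. Averaged over the 4 comparisons, 0 of 8 passed in the main fit, beside 16.9% of all genes. At an unadjusted p below 0.05 there were 2 of 8, beside 4645 of 16062 genes. Over the same libraries BOP1 itself fell by 1.84 on the log2 scale (SE 0.09, adjusted p = 2.04e-11).

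MYC was 92.3 to 216.1 TPM over the 12 control siRNA libraries (median 109) and 76.1 to 182.8 TPM over the 12 BOP1 siRNA libraries (median 97.1), ranges that overlap widely. The averaged difference was -0.19 (SE 0.15, adjusted p = 0.437, limma). With the block it passed at the same size (adjusted p = 0.00189), and in libraries 1 and 2 alone it was -0.15 (adjusted p = 0.0332). MXD3 was 2.65 to 18.5 TPM with control siRNA (median 8.73) and 5.41 to 26.1 TPM with BOP1 siRNA (median 10.8). Its averaged difference was 0.45 (SE 0.16, adjusted p = 0.0643, and 0.0119 with the block). Of single libraries, leaving out control siRNA IFN library 1 at 8 h, control mock or IFN library 1 at 12 h, or BOP1 siRNA mock library 4 at 12 h also brought it past the threshold (adjusted p from 0.0242 to 0.0465). In libraries 1 and 2 the difference of MXD3 was 0.28 and in number 4 it was 0.77.

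MXD4 was 8.91 to 23.1 TPM with control siRNA and 7.01 to 17.7 TPM with BOP1 siRNA. Its averaged difference was -0.32 (SE 0.12, adjusted p = 0.08, limma, and 0.00144 with the block). It passed without any of 3 control siRNA libraries numbered 4 (mock or IFN at 8 h, mock at 12 h) and without BOP1 siRNA mock or IFN library 1 at 8 h (adjusted p from 0.0311 to 0.0457). In mock cells at 8 h the MXD4 difference of -0.50 had an adjusted p of 0.395, and of 0.025 with the block. With the block, then, 1 of 32 single tests passed, with 606 to 1415 of all 16062 genes called in the 4 comparisons, and 3 of 8 averaged tests, beside 29.7% of all genes. The averaged differences of MAX (-0.06), MXD1 (-0.02), MNT (-0.03), MLX (-0.01) and MLXIP (0.06) had adjusted p-values from 0.634 to 0.972.

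The difference of the IFN effect between BOP1 and control siRNA was tested as an interaction at each time. None of 16 member tests passed in limma, and 0 were below an unadjusted p of 0.05. The background was 0.00% of all genes at both times, with 353 genes at 8 h and 259 at 12 h below an unadjusted p of 0.05. Between 8 and 12 h, 0 of 32 member tests passed. The background was 0.131% of genes in control mock cells and 3.53% in control IFN cells. With BOP1 siRNA it was 0.230% in mock cells and 2.96% in IFN cells. At an unadjusted p below 0.05 there were 3 of 32 member tests, beside 2067, 3094, 1549 and 2897 of 16062 genes in that order. Those 3 were MLXIP in IFN cells (0.48 with control siRNA and 0.47 with BOP1 siRNA, adjusted p = 0.135 and 0.163) and MXD3 in BOP1 siRNA mock cells (0.68, adjusted p = 0.516).

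The libraries numbered 4 differed from numbers 1 and 2 in several members, a comparison added after the data were seen. At 12 h MYC was 180.7 to 216.1 TPM in the 4 libraries numbered 4 and 86.9 to 109.8 TPM in the 8 others, without overlap, a difference of 0.95 (SE 0.06, adjusted p = 2.46e-09, limma). MXD1 was higher by 0.93 (adjusted p = 0.00254) and MLX by 0.33 (adjusted p = 0.000722), and MXD3 was lower by -0.64 (adjusted p = 0.0129). These 4 of 8 members stand beside 39.0% of all genes called at 12 h, 4872 higher and 1387 lower. At 12 h mitochondrial genes made up 6.86 to 12.2% of TPM in number 4 and 12.8 to 15.9% in the others. The lowest share was that of the control mock library. A link between this share and the differences was not tested. At 8 h MYC did not pass, at 76.1 to 125.2 TPM in number 4 and 91.4 to 119.1 TPM in the others (-0.02, adjusted p = 0.838).

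At 8 h the members that passed were others: MXD4 (-0.65, adjusted p = 0.000342), MNT (-0.80, adjusted p = 0.00199) and MLXIP (-0.43, adjusted p = 0.00322) were lower in number 4, and MLX was higher (0.33, adjusted p = 0.0026), beside 15.4% of all genes. Of these, only MLX also passed at 12 h, where it missed the threshold under median-of-ratios rescaling (0.19, adjusted p = 0.0556). MXD4 at 12 h was at -0.20 (adjusted p = 0.129), and at -0.33 after that rescaling (adjusted p = 0.0117). MYCL, a MYC relative, was 8.18, 4.24, 2.35 and 0.624 TPM in the 12 h libraries numbered 4 and 0.274 to 1.31 TPM in the others, and was higher by 1.31 (adjusted p = 0.000153). What the number 4 stands for is not given in the labels, and its part in the differences described above was tested only by the split and the block values given beside them.

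**Figure D3:**
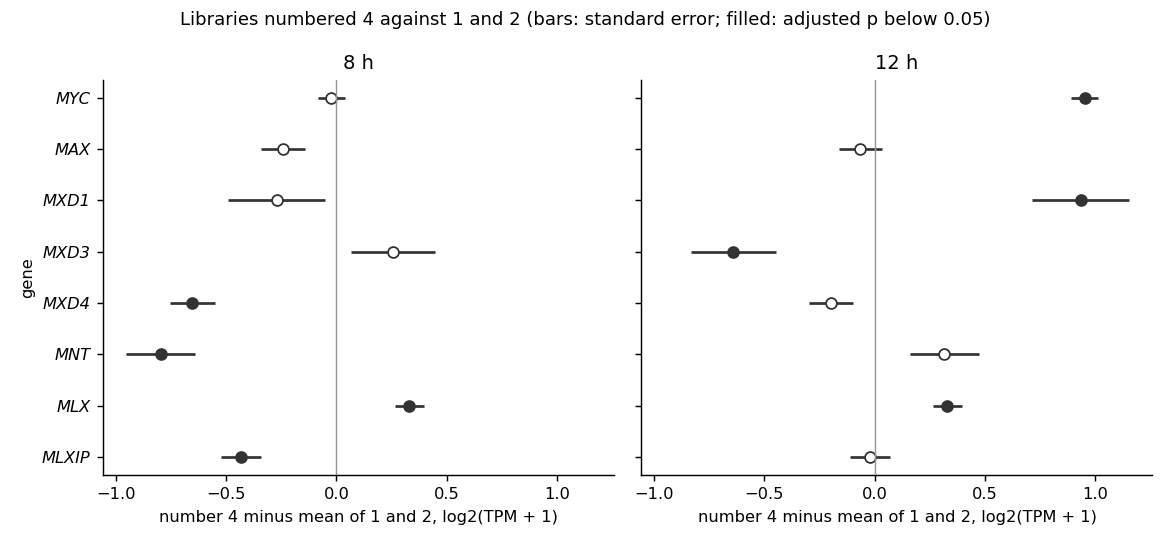
Difference in log2(TPM + 1) between libraries numbered 4 and the mean of numbers 1 and 2 for each network gene (horizontal axes), at 8 h (left) and 12 h (right); bars are 1 SE, and filled points passed an adjusted p of 0.05. MYC sits at -0.02 at 8 h and at 0.95 at 12 h.

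Of the 4 other network genes tested, 1 passed for IFN, MLXIPL, beside 41.9% of all genes. MLXIPL, the carbohydrate-response factor ChREBP, was 0.991 to 4.34 TPM under mock and 0.45 to 2.44 TPM under IFN and fell by 0.69 on average (SE 0.15, adjusted p = 0.00108, limma). The averaged IFN difference was 0.17 for MXI1 (adjusted p = 0.311), 0.03 for MGA (adjusted p = 0.863) and -0.38 for MYCL (adjusted p = 0.226). With the block MYCL passed too (adjusted p = 0.0396), and in libraries 1 and 2 alone MXI1 did (0.34, adjusted p = 0.00131). For BOP1 siRNA 0 of 4 passed in limma. With the block 3 of 4 did, beside 29.7% of all genes: MYCL (-0.44, adjusted p = 0.0337), MXI1 (-0.35, adjusted p = 0.00949) and MLXIPL (0.42, adjusted p = 0.0349). In libraries 1 and 2 alone MXI1 passed (-0.28, adjusted p = 0.0138).

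Lists of genes that act with the network or respond to it were read for their averaged differences. The median over all 16062 genes was -0.10 for IFN and -0.000737 for BOP1 siRNA on the log2(TPM + 1) scale. Each count below stands beside 41.9% of all genes called for IFN (54.3% with the block) and 16.9% for BOP1 siRNA (1608 higher and 1110 lower, and 29.7% with the block), and a count near that share does not set a list apart. Among known genes activated by MYC, 15 of 31 tested were lower with IFN and 2 higher, with a median of -0.16, while of all genes 4652 were lower and 2084 higher (2965 and 2946 after median-of-ratios rescaling). ODC1, the first enzyme of polyamine synthesis, was 69.8 to 140.1 TPM in the 12 mock libraries and 14.2 to 51.0 TPM in the 12 IFN libraries, without overlap, and fell by 2.03 (SE 0.19, adjusted p = 2.27e-08). IMPDH2, an enzyme of guanine nucleotide synthesis, fell by 0.54 (adjusted p = 6.55e-07). The translation initiation factor EIF4A1 (0.16, adjusted p = 0.00141) and the chromatin protein PTMA (0.15, adjusted p = 0.0154) rose. After median-of-ratios rescaling 10 were lower and 5 higher, after quantile normalization 21 and 4, and with the block 19 and 5, so the count of small differences moved with the setting, while ODC1 was at -1.94 and -2.05 under the rescalings.

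With BOP1 siRNA, 9 of the 31 MYC-activated genes were lower and 1 higher, with a median of -0.17 beside -0.000737 over all genes. IMPDH2 fell by 0.32 (adjusted p = 0.00109), the nucleolar methyltransferase FBL by 0.30 (adjusted p = 7.04e-06) and EIF4A1 by 0.18 (adjusted p = 0.00127). The nucleotide hydrolase DNPH1 rose by 0.16 (adjusted p = 0.0106). ODC1 did not pass (-0.25, adjusted p = 0.426). With the block, 19 were lower and 1 higher, beside 29.7% of all genes. In libraries 1 and 2 alone 14 were lower and 2 higher, beside 18.3%.

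Among 7 tested genes that MYC represses, IFN lowered CEBPA, a differentiation factor (-0.62, adjusted p = 3.42e-07), and NDRG2 (-0.41, adjusted p = 0.0216), and 0 of 7 passed as higher. The median of the list was 0.09, of the opposite sign to these calls. With the block 3 passed as higher, GADD45A (0.55, adjusted p = 8.95e-06), GADD45B (0.39, adjusted p = 0.0245) and NDRG1 (0.45, adjusted p = 0.0116), and the same genes passed in libraries 1 and 2 alone. After median-of-ratios rescaling 2 were higher and 1 lower. With BOP1 siRNA, CEBPA rose. It was 4.47, 3.96 and 4.14 TPM in control mock cells at 8 h and 8.38, 7.20 and 9.50 TPM in BOP1 siRNA mock cells, without overlap. Its averaged difference was 0.75 (SE 0.07, adjusted p = 3.14e-07). It was the only gene of the 7 to pass (4 with the block), and the median of the list was 0.17.

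Of 14 cofactors that MYC recruits, 3 rose with IFN, among them CDC73 of the PAF complex (0.63, adjusted p = 2.12e-07) and the acetyltransferase KAT2A (0.39, adjusted p = 0.000195). Another 3 fell, among them WDR5, which anchors MYC to chromatin (-0.41, adjusted p = 0.000219), and the ATPase RUVBL2 (-0.24, adjusted p = 0.00023). The list median was 0.01, with 5 higher and 2 lower after median-of-ratios rescaling and 4 and 6 with the block. These 6 of 14 calls are near the share of all genes. With BOP1 siRNA the paired ATPases RUVBL1 (-0.34, adjusted p = 6.08e-05) and RUVBL2 (-0.32, adjusted p = 4.65e-05) fell and none rose, with a median of -0.15. With the block 8 fell.

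Of 11 corepressors of MXD proteins and MNT, SIN3A, the scaffold that MXD proteins bind, rose with IFN (0.27, adjusted p = 0.0213), and 3 fell, including the histone-binding RBBP4 (-0.21, adjusted p = 0.000598) and the deacetylase HDAC2 (-0.19, adjusted p = 0.00491). With the block 3 rose and 4 fell. After median-of-ratios rescaling 4 rose and 0 fell. RBBP4 and HDAC2 kept their sign there and no longer passed (-0.12 and -0.09, adjusted p = 0.0907 and 0.297, limma). With BOP1 siRNA, SIN3A fell by 0.34 (adjusted p = 0.0121), and SAP18 (0.19, adjusted p = 0.00925) and RBBP7 (0.19, adjusted p = 0.00316) rose. After median-of-ratios rescaling SAP18 was no longer past the threshold (adjusted p = 0.0523).

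Of 16 genes for the turnover of MYC protein, 2 rose and 7 fell with IFN, with a median of -0.14 (2 and 5 after median-of-ratios rescaling). FBXO32, an F-box protein of a ubiquitin ligase, was 3.21 to 10.3 TPM under mock and 5.51 to 21.3 TPM under IFN and rose by 0.92 (SE 0.12, adjusted p = 3.45e-06). The deubiquitinase USP28 rose by 0.70 (adjusted p = 6.88e-06). GSK3B, the kinase that marks MYC for degradation, fell by 0.46 (adjusted p = 1.14e-05), and the mitotic kinase AURKA by 0.46 (adjusted p = 0.00557). With BOP1 siRNA 1 of 16, SET, an inhibitor of a phosphatase that acts on MYC, passed (-0.22, adjusted p = 0.000631), and with the block 1 was higher and 1 lower.

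Among 9 genes of the MYC transcript and locus, IGF2BP2, which binds and stabilises mRNAs, was 5.72 to 11.6 TPM under mock and 10.7 to 15.2 TPM under IFN, with overlap, and rose by 0.64 (SE 0.08, adjusted p = 8.99e-07). The ribosomal protein gene RPL5 (-0.61, adjusted p = 1.28e-10) and the RNA-binding ELAVL1 (-0.33, adjusted p = 2.17e-05) fell, and with the block 2 were higher and 3 lower. With BOP1 siRNA 5 of 9 fell and none rose (0 higher and 6 lower with the block), led by ELAVL1 (-0.47, adjusted p = 1.6e-06) and IGF2BP2 (-0.24, adjusted p = 0.0343). PVT1, the non-coding neighbour of MYC, differed by -0.01 with IFN and by -0.03 with BOP1 siRNA (adjusted p = 0.964 and 0.922).

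The sugar-sensing arm was read through 6 tested targets of MLXIP and MLXIPL. TXNIP, an inhibitor of glucose uptake and their best known target, rose by 0.68 with IFN (SE 0.22, adjusted p = 0.0165). ARRDC4, its close relative, fell by 0.50 (adjusted p = 0.0275), and the fatty acid enzyme ACACA fell by 0.35 (adjusted p = 0.000332). With BOP1 siRNA, TXNIP rose by 0.73 (adjusted p = 0.0249) and SCD, a fatty acid desaturase, by 0.26 (adjusted p = 0.00265), and 0 of 6 passed as lower. With the block 3 were higher, ARRDC4 added (0.40, adjusted p = 0.000679), and 2 lower, KLF10 (-0.21, adjusted p = 0.0365) and FASN (-0.22, adjusted p = 0.0189), of which FASN also passed after quantile normalization (-0.23, adjusted p = 0.0493). For IFN 1 was higher and 4 lower with the block. TXNIP ranged from 0.907 to 17.8 TPM and was higher in the 12 h libraries numbered 4 (0.96, adjusted p = 0.000677) and lower in those at 8 h (-0.74, adjusted p = 0.0135).

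**Figure D4:**
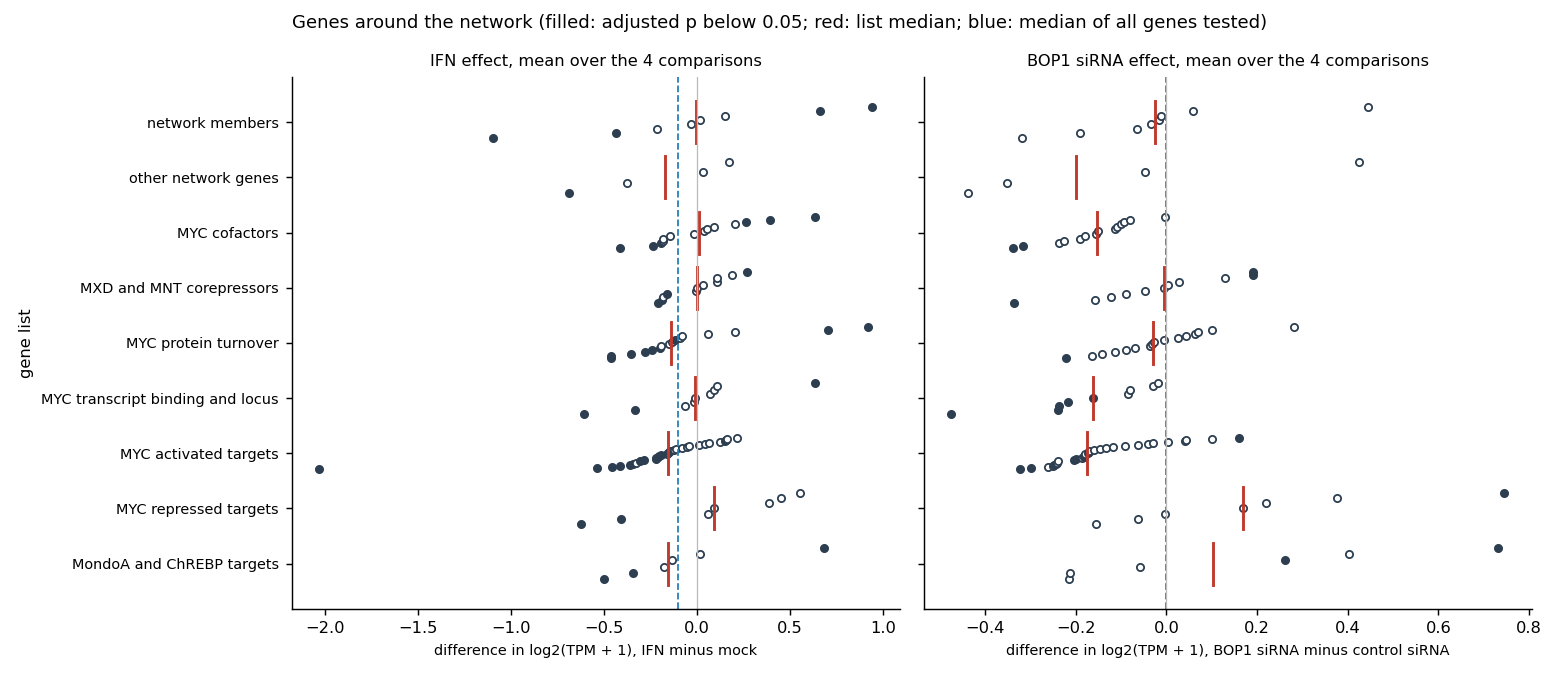
Averaged differences in log2(TPM + 1) for IFN against mock (left) and BOP1 siRNA against control siRNA (right) of each tested gene in 9 lists around the network; filled points passed an adjusted p of 0.05, red bars are list medians, and dashed blue lines the median of all genes tested (-0.10 and -0.000737). The MYC-activated list has its median at -0.16 and -0.17, and ODC1 is the single point near -2.03 in the left panel.

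Likeness of pattern was measured as Pearson's r of log2(TPM + 1) over the 24 libraries among 10599 genes with a mean of at least 5 TPM, and the libraries share groups and numbers, so r is a description only. Nearest to MYC were HSPA13 (0.928) and GDF15 (0.915), and nearest to MAX were BTN3A2 (0.920) and SMYD2 (0.915). MXD1 was most like CCDC9 (0.950) and IER2 (0.943), and MXD3 most like PRXL2B (0.875) and LINC02870 (0.862). For MXD4 the nearest were MAP3K21 (0.868) and INPP4B (0.843), for MNT NR5A2 (0.890) and STAG2 (0.857), for MLX GTF2A2 and EMP3 (0.889 each), and for MLXIP RNF103 (0.869) and ZMIZ1 (0.834). Between members, r was 0.659 for MAX and MXD1, -0.625 for MAX and MXD3, 0.647 for MYC and MXD1, and 0.665 for MNT and MLXIP.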

How the data were processed

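The table deposited by the authors gives TPM per gene and library, made from a stranded poly(A) mRNA preparation per the labels' protocols; the aligner, the counting step, the genome build and the annotation are not given in the sources used here. The 24 columns were mapped to 8 groups by their names. TPM were analysed as log2(TPM + 1) for the 16062 genes that reached 1 TPM in 3 or more libraries, with limma 3.58.1 in R 4.3.3 (1 mean per group, moderated variance with an intensity trend, Benjamini-Hochberg adjustment over all genes within each of 16 comparisons, threshold 0.05). Differences on this scale understate changes of low genes. The fit was also run on simulated data with independent libraries and no differences by column number. That run cannot show how the fit behaves with the differences by number seen here. The smallest two-sided exact permutation p for 3 against 3 is 0.1, so none was used. Averaged effects are the mean of the 4 single contrasts. Deviations from group means of same-numbered libraries correlated in every comparison. The r ran from 0.115 to 0.248 for number 1, from 0.117 to 0.268 for number 2 and from 0.200 to 0.508 for number 4. The main fit does not pair libraries by number. Values with the number as a block within each time pair them. These are given where a member's call changed or a list's count changed by over 1.5 times. With numbers 1 and 2 alone r was -0.012 to 0.156, over 0.1 in 3 of 8 comparisons. Members and lists were chosen with earlier results of these data known. Genes named are the members, per member the 2 most alike, and per list the called genes with the largest averaged change in each direction (up to 2), plus BOP1 and IFIT1 as checks; MX1 and ISG15 rose by 8.33 and 7.51. Further genes, named after their values were seen, are EIF4A1 and ODC1 under BOP1 siRNA, PVT1, genes that passed only in another setting, and genes that overlap members. Alternatives were another pseudocount, filter, scaling, variance model and library set, the block, and leaving out each library. The result of 1 marker gene is not reported here.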

Additional observations from a re-analysis of the deposited data

How the results depend on the processing

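Calls among the members changed most with the block for the column number and with leaving out the libraries numbered 4. Of 32 IFN tests 7 passed, 17 with the replicate block by column number, 16 with the block in libraries 1 and 2 alone and 14 in those libraries without a block, and 5 to 11 when 1 library was left out; of the 8 averaged tests 4 passed, 6 with the block, 5 in libraries 1 and 2 with or without it, 3 of 7 with a mean of at least 5 TPM, and 4 to 5 without 1 library. For BOP1 siRNA the count of 0 became 1 with either block (0 to 0 without 1 library), and the averaged count of 0 became 3 and 2 with the blocks and 2 in libraries 1 and 2 alone (0 to 1 without 1 library). In libraries 1 and 2 without a block, 48.6% of all genes passed for the averaged IFN effect and 18.3% for the averaged BOP1 siRNA effect. In the single IFN comparisons there, 2566 and 3403 of 16062 genes passed with control siRNA at 8 and 12 h. With BOP1 siRNA there were 3495 and 3831. With the block in those libraries these counts were 3087, 4063, 4176 and 4474, and 8348 and 3576 for the averaged effects. No member passed for interaction or time in any setting. Over all genes, the settings other than leaving out 1 library gave 1186 to 3370 calls in place of 1741 for IFN with control siRNA at 8 h, 951 to 4326 in place of 2166 at 12 h, and 1995 to 4653 in place of 2426 and 1634 to 4487 in place of 2370 with BOP1 siRNA. For BOP1 siRNA they gave 41 to 1364 in place of 347 and 10 to 1231 in place of 257 in mock cells, 23 to 1415 in place of 322 and 1 to 606 in place of 106 in IFN cells, and 2253 to 4769 in place of 2718 on average. Time calls ranged from 1 to 314 (21) and 4 to 786 (567) with control siRNA, mock and IFN, and from 2 to 366 (37) and 12 to 897 (475) with BOP1 siRNA, and interaction calls from 0 to 4 at 8 h. Signs turned only for differences that had not passed. In libraries 1 and 2, with or without the block, the turned values were -0.0024 for the IFN effect on MYC with control siRNA at 12 h, 0.116 for that on MNT and -0.0093 for that on MLX with BOP1 siRNA at 8 h. There the BOP1 siRNA effect turned on MAX in mock cells at 12 h (0.0627), IFN cells at 8 h (0.1042) and on average (0.0121), on MXD1 in mock (0.0303) and IFN cells (0.1569) at 12 h and on average (0.14), on MXD3 in IFN cells at 12 h (-0.2189), on MNT in mock cells at 8 h (-0.1623), and on MLX in mock cells at 8 h (0.0558), at 12 h (0.1167) and on average (0.0581). Median-of-ratios rescaling turned the BOP1 siRNA effect on MAX in IFN cells at 8 h (0.0143), on MNT (-0.0131) and MLXIP (-0.0229) in mock cells at 8 h and on MLXIP in IFN cells at 8 h (0.0089), and the IFN effect on MLX with BOP1 siRNA at 12 h (0.0646) and on average (0.063). Quantile normalization turned the IFN effect on MYC with BOP1 siRNA at 12 h (-0.046) and the BOP1 siRNA effect on MAX in mock cells at 12 h (0.0081), on MNT (-0.0242) and MLXIP (-0.0279) in mock cells at 8 h and on MLXIP in IFN cells at 8 h (0.0091). Without 1 library, the IFN difference of MYC ran from -0.29 to 0.33 for control siRNA at 12 h and -0.28 to 0.37 for BOP1 siRNA at 12 h. The IFN difference of MNT ran from -0.41 to 0.20 for control siRNA at 8 h, -0.58 to 0.17 for BOP1 siRNA at 8 h, -0.02 to 0.28 for BOP1 siRNA at 12 h and -0.059 to 0.13 for the average. The IFN difference of MLX ran from -0.11 to 0.17 for control siRNA at 8 h, -0.25 to 0.0601 for control siRNA at 12 h, -0.081 to 0.10 for BOP1 siRNA at 8 h, -0.12 to 0.061 for BOP1 siRNA at 12 h and -0.063 to 0.019 for the average. For BOP1 siRNA, MYC ran from -0.53 to 0.093 for mock cells at 12 h and -0.52 to 0.13 for IFN cells at 12 h. For BOP1 siRNA, MXD4 ran from -0.36 to 0.004 for mock cells at 12 h. For BOP1 siRNA, MXD3 ran from -0.19 to 0.55 for IFN cells at 12 h. For BOP1 siRNA, MXD1 ran from -0.069 to 0.16 for mock cells at 8 h, -0.65 to 0.45 for mock cells at 12 h, -0.30 to 0.085 for IFN cells at 12 h and -0.12 to 0.16 for the average. For BOP1 siRNA, MNT ran from -0.21 to 0.17 for mock cells at 8 h, -0.0401 to 0.26 for mock cells at 12 h, -0.47 to 0.30 for IFN cells at 8 h, -0.22 to 0.087 for IFN cells at 12 h and -0.11 to 0.083 for the average. For BOP1 siRNA, MLXIP ran from -0.11 to 0.14 for mock cells at 8 h, -0.21 to 0.16 for IFN cells at 8 h and -0.10 to 0.032 for IFN cells at 12 h. For BOP1 siRNA, MLX ran from -0.13 to 0.13 for mock cells at 8 h, -0.16 to 0.15 for mock cells at 12 h, -0.13 to 0.085 for IFN cells at 8 h, -0.034 to 0.17 for IFN cells at 12 h and -0.0403 to 0.039 for the average. For BOP1 siRNA, MAX ran from -0.11 to 0.12 for mock cells at 12 h and -0.072 to 0.10 for IFN cells at 8 h. The cause was not tested. TPM keep no depth, so the counting error of low genes such as MXD1 is unknown.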
